A study of Homo sapiens with 16 samples.

Results

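The 5 transcription factor genes associated with the response of B cells to IL4 described here, NFIL3, AHR, VDR, HLX and BARX2, were followed through 16 RNA-seq libraries of lymphoma cell lines. They were chosen by name, as the rows of the count files that carry these 5 symbols among 62714 Ensembl genes, and all 5 symbols were found. NFIL3, VDR and HLX are also among the 34 symbols that the study lists as its core IL4 gene set, a list drawn up on primary B cells, while AHR and BARX2 are not.

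IL4 is a cytokine of T follicular helper cells that acts on B cells through its receptor, the kinases JAK1 and JAK3 and the transcription factor STAT6, and CREBBP is an acetyltransferase that many transcription factors recruit as a coactivator. NFIL3 is a basic leucine zipper repressor that competes with the related activators DBP, TEF and HLF for the same DNA sites, AHR is a ligand-activated factor that pairs with ARNT and switches on detoxifying enzymes of the CYP1 family, and VDR is the nuclear receptor for active vitamin D and pairs with RXR receptors. HLX and BARX2 are homeobox factors, HLX with a known role in blood cells and BARX2 best known from muscle and epithelium.

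The libraries came from 4 established human B-cell lymphoma lines, each infected with the pLENTI-CRISPRv.2 lentivirus carrying Cas9 and a guide pool against CREBBP or, as control, against the AAVS integration site. The infected cells were kept as pools rather than clones, so a pool can hold cells with and without a disrupted gene. Each of the 8 pools was sequenced without cytokine (baseline) and after 4 h of IL4 at 10 ng/ml. This makes 4 groups of 4 libraries, the AAVS and the CREBBP pools with and without IL4, in which the lines are the replicates. SU-DHL4 is called line 1 and DOHH2 line 4. The sample titles and the cell-line field swap OCI-LY7 with SU-DHL10, so these are only numbered, line 2 being the line titled OCILY7 and line 3 the line titled SUDHL10. All groups shared the lentiviral vector and Cas9, and no untransduced cells were analysed here. Each line was sampled once per condition and the tests blocked on the line. The p-values therefore set a change against its variation from line to line, moderated across genes. The error of single libraries cannot be told apart from that variation.

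Total counts per library ranged from 19649735 to 61981976, and the AAVS IL4 libraries were the shallowest group with a median of 29790814. A total of 3 counts, taken here as the floor below which a level was not read, corresponded to between 0.0484 and 0.153 counts per 1000000 counts of the library (CPM), and floors and counting intervals cover counting error only. The RNA of CREBBP itself ranged from 205 to 360 CPM in the AAVS baseline libraries and from 187 to 278 CPM in the CREBBP baseline libraries, with a fitted log2 difference of -0.11 ± 0.21 (SE) and an edgeR adjusted p of 0.851, so its RNA level did not separate the targeted from the control pools, and CREBBP protein is not measured in these files. For EP300, the paralog of CREBBP, the same log2 difference was -0.22 ± 0.20 (SE; edgeR adjusted p = 0.675).

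The AAVS IL4 group of libraries stood apart before any member was considered. The B-cell markers MS4A1 (588 to 2275 CPM) and PAX5 (150.3 to 524 CPM) were present in all 16 libraries. IGHM, the heavy chain of IgM, measured 951, 711, 1711 and 138 CPM after IL4 in AAVS lines 1 to 4 and no more than 0.07 CPM in the other 12 libraries. The summed level of 8 naive or memory B-cell markers ranged from 558 to 3687 CPM in the AAVS IL4 group against 127 to 298 CPM at AAVS baseline, 70.1 to 200 CPM at CREBBP baseline and 56.0 to 197 CPM with IL4 in the CREBBP pools, and 8 of 8 reached 0.5 CPM in at least 1 AAVS IL4 library against 4 of 8 in each other group. The summed level of 13 T-cell markers ranged from 40.6 to 259 CPM in the AAVS IL4 group against 5.02 to 25.9, 3.22 to 38.5 and 2.55 to 33.1 CPM in the same order, with 13 of 13, 6 of 13, 4 of 13 and 4 of 13 of them at 0.5 CPM or more in at least 1 library. Within this list CD2 had 0 counts in all 12 other libraries and ranged from 0.57 to 7.68 CPM with IL4 in the AAVS pools. LYZ of myeloid cells (2.56 to 15.4 CPM) and HBB of red cells (1.74 to 10.7 CPM) were also present in these 4 libraries, against at most 0.05 and 0.65 CPM elsewhere. The rest of their lists did not all follow. Of 10 myeloid markers 6 were tested, with 3 fitted higher and 3 lower with IL4 in the AAVS pools. FCN1 ranged from 2.45 to 9.77 CPM at AAVS baseline and from 0.712 to 6.27 CPM with IL4. PPBP and PF4 of the red-cell and platelet list had 0 counts in all 16 libraries. Every comparison that uses the AAVS IL4 group therefore compares libraries that also differ in transcripts of other cell types, and leaving these libraries out would leave no AAVS IL4 group. The IL4 response of the CREBBP pools and the baseline comparison do not use them.

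The annotation places the 5 genes on 5 chromosomes. In GENCODE release 44 on GRCh38, NFIL3 (ENSG00000165030) lies at chr9:91409045-91423832 on the minus strand, AHR (ENSG00000106546) at chr7:16916359-17346152 on the plus strand and VDR (ENSG00000111424) at chr12:47841537-47943048 on the minus strand. HLX (ENSG00000136630) lies at chr1:220879431-220885059 and BARX2 (ENSG00000043039) at chr11:129375848-129452279, both on the plus strand. The start of HLX overlaps the antisense gene HLX-AS1, and the strand setting of the counting is not given in the sources used here, but HLX-AS1 had 0 counts in all 16 libraries. An antisense long noncoding gene inside the AHR locus, ENSG00000237773, reached at most 3.56 CPM.

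RefSeq promoter windows (GRCh38.p14, 250 bases before to 50 after a start) matched 3 of the 5 members, in 4 windows. The 250 bases before the start are printed here for NFIL3, AHR and HLX, for members at readable levels, 5′ to 3′ on the strand of transcription and in lower case. Capitals mark GCGTG, the core of the site AHR binds with ARNT, and AGGTCA, the core that nuclear receptors such as VDR and RXR bind, on either strand.

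NFIL3 at chr9:91423833-91424082, minus strand: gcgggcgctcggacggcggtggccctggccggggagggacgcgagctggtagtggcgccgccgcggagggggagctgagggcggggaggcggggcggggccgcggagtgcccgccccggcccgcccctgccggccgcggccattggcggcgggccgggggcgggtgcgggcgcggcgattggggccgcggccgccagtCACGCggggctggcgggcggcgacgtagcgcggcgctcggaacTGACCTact

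AHR at chr7:17298402-17298651, plus strand: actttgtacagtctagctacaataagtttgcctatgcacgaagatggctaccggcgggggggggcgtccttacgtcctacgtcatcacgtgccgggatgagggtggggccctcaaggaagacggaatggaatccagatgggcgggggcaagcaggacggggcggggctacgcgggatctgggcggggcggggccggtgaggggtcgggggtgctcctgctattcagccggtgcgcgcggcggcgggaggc

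HLX at chr1:220879193-220879442, plus strand: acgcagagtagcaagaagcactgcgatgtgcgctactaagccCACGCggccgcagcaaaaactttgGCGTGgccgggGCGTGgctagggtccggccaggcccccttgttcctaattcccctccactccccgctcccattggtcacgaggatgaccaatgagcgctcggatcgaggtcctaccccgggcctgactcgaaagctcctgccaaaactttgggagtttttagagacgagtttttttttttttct

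GCGTG occurred 3 times in the 300-base HLX window, 1 time in the AHR window (after the start, so not printed), 1 time in the NFIL3 window shown and 2 times in an NFIL3 window at an upstream start, and 36.5% of all 35116 windows of this length held it. AGGTCA occurred 1 time, in the NFIL3 window shown, and was held by 13.8% of all windows. The letters TTCNNNNGAA, the form of site preferred by STAT6, and TTCNNNGAA, the form shared by other STAT factors, were held by 6.44% and 7.66% of all windows and are not in these 4. TTATGTAA and TTACGTAA, sites of the NFIL3 type, were held by 0.886% and 0.125% of all windows and are not in these 4 either.

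The level of NFIL3 in lines 1 to 4 was 8.38, 20.3, 6.90 and 10.2 CPM at AAVS baseline and 69.7, 45.8, 142 and 57.7 CPM in the AAVS IL4 libraries. All 4 AAVS IL4 libraries lay above every AAVS baseline library, with line 3 the highest and line 2 the lowest after IL4. Among the CREBBP pools the baseline libraries held 9.68, 28.0, 5.05 and 6.52 CPM, and the IL4 libraries 4.51, 33.3, 7.75 and 6.55 CPM. There the libraries with and without IL4 overlapped, and line 2 was the highest in both.

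The AHR level was 23.6, 45.1, 17.4 and 26.1 CPM in lines 1 to 4 at AAVS baseline and 77.9, 66.3, 116 and 52.2 CPM in the AAVS IL4 libraries. The groups did not overlap, although the lowest AAVS IL4 library (line 4) was only a little above the highest baseline library (line 2). For the CREBBP pools the baseline values of AHR were 17.9, 33.8, 17.2 and 31.8 CPM, and those after IL4 were 13.96, 22.7, 22.0 and 35.1 CPM, with lines 1 and 2 lower and lines 3 and 4 higher after IL4.

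VDR was at a lower level, with 3.35, 1.37, 3.67 and 1.64 CPM in lines 1 to 4 at AAVS baseline and 14.8, 4.12, 32.5 and 4.99 CPM in the AAVS IL4 libraries. The AAVS groups did not overlap, and lines 1 and 3 were the highest both without and with IL4. CREBBP baseline libraries held 6.20, 0.891, 3.86 and 2.89 CPM of VDR, and CREBBP IL4 libraries 5.63, 0.472, 3.99 and 3.40 CPM. The CREBBP libraries of lines 1, 3 and 4 were above the AAVS baseline libraries of the same lines, and line 2 was the lowest line in all 4 groups.

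HLX was above the floor in a single group. The AAVS IL4 libraries of lines 1 to 4 held 164, 18, 406 and 64 counts, or 6.40, 0.530, 20.7 and 1.34 CPM. The remaining 12 libraries held 1 count in all, in the AAVS baseline library of line 2. Summed over the group, the AAVS IL4 libraries held 652 counts and the AAVS baseline libraries 1, a ratio per total count of 1017 with an exact 95% counting interval of 182 to 40227. Against the 0 counts of the CREBBP IL4 group, with the floor of 3 counts over the group, HLX was at least 330.0-fold higher in the AAVS IL4 group.

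BARX2 was at the edge of detection and was not kept by the filter of any comparison. The AAVS IL4 libraries of lines 1 to 4 held 2, 2, 1 and 5 counts and the AAVS baseline libraries 0 counts, so the summed AAVS IL4 level of 0.0788 CPM was at least 5.20-fold higher than the floor of 3 counts over the baseline group. The CREBBP IL4 libraries held 0, 6, 2 and 0 counts and the CREBBP baseline libraries 1 count, in line 4, a ratio of 7.07 with an exact 95% counting interval of 0.947 to 314. No fold change was fitted for BARX2, and it exceeded 3 counts in 2 libraries, AAVS IL4 line 4 and CREBBP IL4 line 2.

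**Figure D1:**
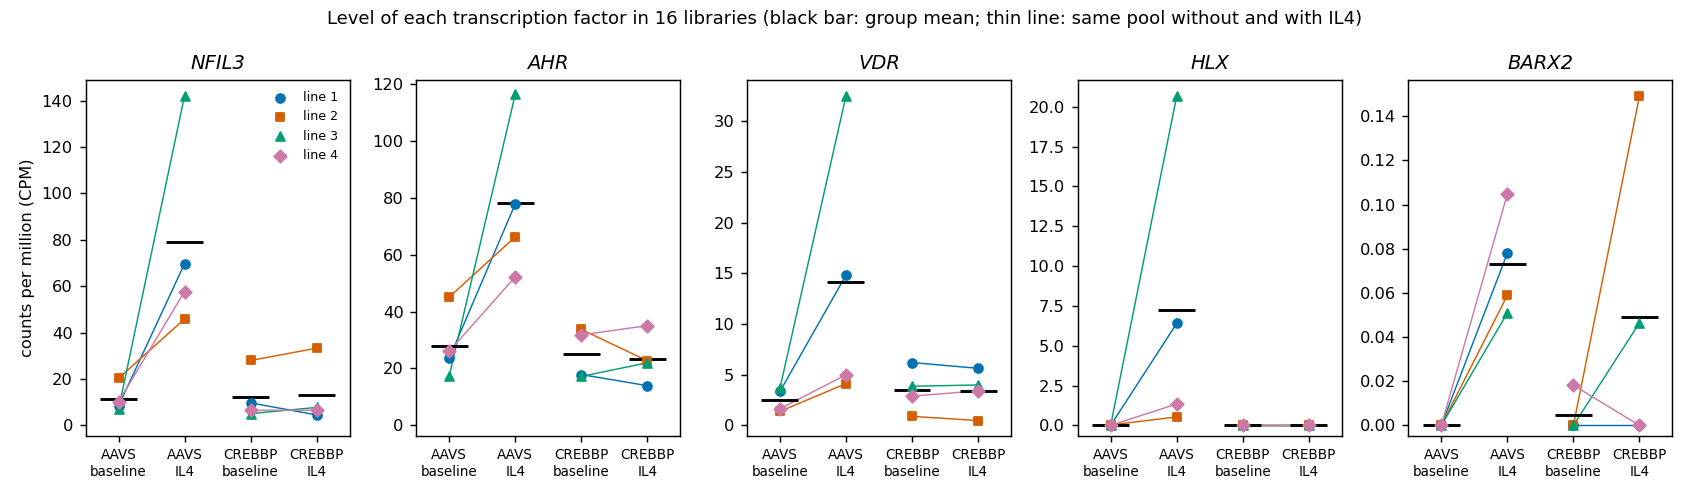
CPM (vertical axis, a separate linear scale for each gene) of the 5 transcription factors in the 4 groups; each symbol is a library, its colour and shape the line, thin lines join the libraries of a pool and black bars are group means. NFIL3, AHR, VDR and HLX are higher with IL4 in all 4 AAVS pools, with line 3 the highest, while the CREBBP pools run level or split in direction; BARX2 never exceeds 0.149 CPM.

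Levels between the genes were compared as CPM per kilobase of annotated exon. At AAVS baseline the order was NFIL3 (5.56 ± 2.95, SD, n = 4), AHR (3.48 ± 1.48), VDR (0.442 ± 0.206), HLX and BARX2, and the ranges of NFIL3 and AHR overlapped while that of VDR lay below both. In the AAVS IL4 libraries NFIL3 (38.4 ± 21.1, range 22.3 to 69.2) lay above AHR (9.72 ± 3.42, range 6.49 to 14.5) with no overlap, and AHR lay above VDR (2.49 ± 2.33, range 0.727 to 5.73), whereas VDR and HLX (1.28 ± 1.66, range 0.0942 to 3.67) overlapped. In the CREBBP IL4 libraries NFIL3 (6.34 ± 6.60) and AHR (2.91 ± 1.08) overlapped again, and VDR stood at 0.595 ± 0.379.

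The first comparison asked how the genes respond to IL4 in control pools. NFIL3 rose 6.56-fold in the AAVS pools and VDR 4.17-fold, and HLX rose from the single baseline count given above, each in 4 of 4 lines. The fitted log2 fold change of NFIL3 was 2.71 ± 0.47 (SE, n = 4 lines; edgeR quasi-likelihood adjusted p = 0.0412), with an unadjusted 95% interval of 1.59 to 3.83. That of VDR was 2.06 ± 0.32 (edgeR adjusted p = 0.0307), and HLX had an edgeR adjusted p of 0.0170. HLX was kept by the filter only through the AAVS IL4 libraries, where it is high, so its direction here was fixed in advance. AHR was also higher in 4 of 4 lines, with a log2 fold change of 1.44 ± 0.33, but its edgeR adjusted p of 0.0907 missed the threshold of 0.05. Thus 3 of the 5 members were called higher, against 2.39% of the 20310 genes tested (485 genes higher, 3 lower), with AHR tested and not called and BARX2 not tested. All 4 members tested had their AAVS IL4 libraries above all AAVS baseline libraries, as had 6.34% of the genes tested. BARX2, outside that set, had the same order, but on 1 to 5 counts per library, most of them under the floor.

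The size of the response differed between lines. On the scale log2(CPM + 0.1), the IL4 change of NFIL3 in the AAVS pools was 3.04, 1.17, 4.35 and 2.49 in lines 1 to 4, that of AHR 1.72, 0.55, 2.73 and 1.001, and that of VDR 2.11, 1.52, 3.11 and 1.55. Line 3 had the largest change and line 2 the smallest for each of these 3 genes and for HLX (7.70 in line 3, 2.34 in line 2). Some transcripts of other cell types were also highest in line 3, where CCR7 reached 300 CPM, CD44 941 CPM and CD3D 6.82 CPM. Others were not, with TRAC highest in line 2 (39.2 CPM against 18.5 CPM in line 3), CD27 in line 1 (122 against 59.0 CPM) and FCN1 in line 4 (6.27 against 0.712 CPM). Each of these was already present in that line at AAVS baseline, TRAC at 23.6, CD27 at 149 and FCN1 at 9.77 CPM. The part of transcripts of other cell types in the levels of the 5 genes was not tested. In these bulk libraries more cells of a type and more RNA per cell cannot be told apart.

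**Figure D2:**
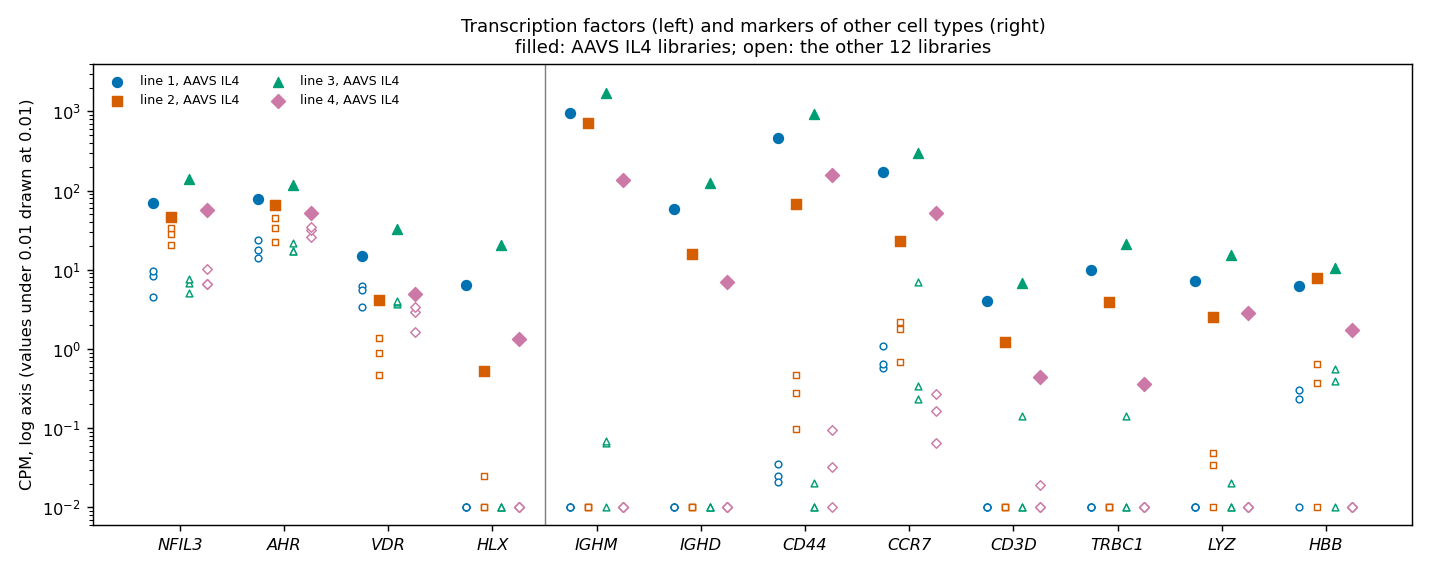
CPM on a log axis, with values under 0.01 drawn at 0.01, for 4 of the transcription factors (left of the vertical line) and 8 markers of naive or memory B cells, T cells, myeloid cells and red cells (right); filled symbols are the AAVS IL4 libraries, open symbols the other 12 libraries, and colour and shape give the line. For NFIL3, AHR, VDR, HLX and the 8 markers drawn, the filled symbol of a line lies above all open symbols of that line. Line 3 is the highest filled symbol for each of them. The 8 markers are a selection from their lists, and other markers there do not all follow. TRAC, CD27 and FCN1, not drawn, are not highest in line 3 among the AAVS IL4 libraries. CD27 and FCN1 are also lower with IL4 than at baseline in every AAVS pool.

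The calls in the AAVS pools depended on single lines. Without line 1 or without line 4 none of the 5 members passed, with edgeR adjusted p-values of 0.191 and 0.129 for NFIL3, 0.197 and 0.0829 for VDR and 0.11 and 0.0653 for HLX, without line 3 VDR lost its call (edgeR adjusted p = 0.0582), and without line 2 AHR passed as well (edgeR adjusted p = 0.0400).

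The second comparison asked the same of the CREBBP pools, where no member was called. The fitted log2 fold change was 0.00 ± 0.28 (SE; 95% interval -0.62 to 0.63) for NFIL3, higher in 3 of 4 lines, -0.06 ± 0.15 (-0.41 to 0.29) for AHR, higher in 2 of 4, and -0.13 ± 0.26 (-0.71 to 0.46) for VDR, higher in 2 of 4. The edgeR adjusted p-values lay at 0.999, 0.961 and 0.953. HLX had 0 counts in all 8 CREBBP libraries and was not tested. The background here was 0% of 18282 genes called in either direction by edgeR (502 genes at an unadjusted p under 0.05, and 1 gene called by DESeq2 and 0 by limma-voom), so the absence of a call is shared by all genes.

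The third comparison set CREBBP against AAVS pools without IL4. The log2 difference was 0.00 ± 0.24 (SE; 95% interval -0.52 to 0.52) for NFIL3, -0.04 ± 0.21 (-0.49 to 0.42) for AHR and 0.42 ± 0.36 (-0.38 to 1.21) for VDR, with edgeR adjusted p-values of 0.9996, 0.960 and 0.660. No member was called, and 0% of the 18936 genes tested were called by edgeR (2422 at an unadjusted p under 0.05, 514 called by DESeq2 and 39 by limma-voom). The direction was mixed over lines for each of them, with NFIL3 higher in 2 of 4 lines, AHR in 1 and VDR in 3.

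The fourth comparison set the 2 kinds of pool against each other with IL4, and shares the AAVS IL4 libraries with the first. HLX was lower in the CREBBP pools in 4 of 4 lines and was the member called (edgeR adjusted p = 0.0204). With 0 counts in the CREBBP IL4 group, HLX again passed the filter only through the AAVS IL4 libraries, which fixed its direction in advance. NFIL3, AHR and VDR were also lower in 4 of 4 lines, with log2 differences of -2.82 ± 0.75 (SE), -1.47 ± 0.37 and -1.73 ± 0.48, and with edgeR adjusted p-values of 0.0751, 0.0676 and 0.0820 that missed the threshold. By line, on the scale log2(CPM + 0.1), the NFIL3 difference (CREBBP minus AAVS) was -3.92, -0.46, -4.18 and -3.12 in lines 1 to 4. In line 2 the CREBBP pool with IL4 held 33.3 CPM against 45.8 CPM in the AAVS pool, so the gap there was small, and without line 2 NFIL3 and AHR passed with edgeR adjusted p-values of 0.000909 and 0.0373. The count of 1 in 5 members called lower stands beside 3.42% of the 19581 genes tested (670 lower, 189 higher). Without line 1 or line 3 HLX no longer passed (edgeR adjusted p = 0.0649 and 0.0975).

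The fifth comparison tested the difference in IL4 response itself, in 1 model of all 16 libraries, and shares its libraries with the others. VDR was called, with a log2 difference in response (CREBBP minus AAVS) of -2.09 ± 0.40 (SE; 95% interval -2.96 to -1.21; edgeR adjusted p = 0.0453). The response of VDR was smaller in the CREBBP pool in 4 of 4 lines, with differences of -2.25, -2.31, -3.07 and -1.32 on the scale log2(CPM + 0.1). For NFIL3 the difference was -2.60 ± 0.58 (edgeR adjusted p = 0.0779) and for AHR -1.39 ± 0.36 (edgeR adjusted p = 0.128), smaller in 4 of 4 lines for both. edgeR gave no usable value for HLX, for which all 8 CREBBP libraries are at 0, while limma-voom called it. HLX entered this test only through the AAVS IL4 libraries. The single member called compares with 0.62% of the 21932 genes tested (136 lower, 4 higher). VDR lost its call without line 1, 3 or 4 (edgeR adjusted p = 0.42, 0.261 and 0.0881).

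**Figure D3:**
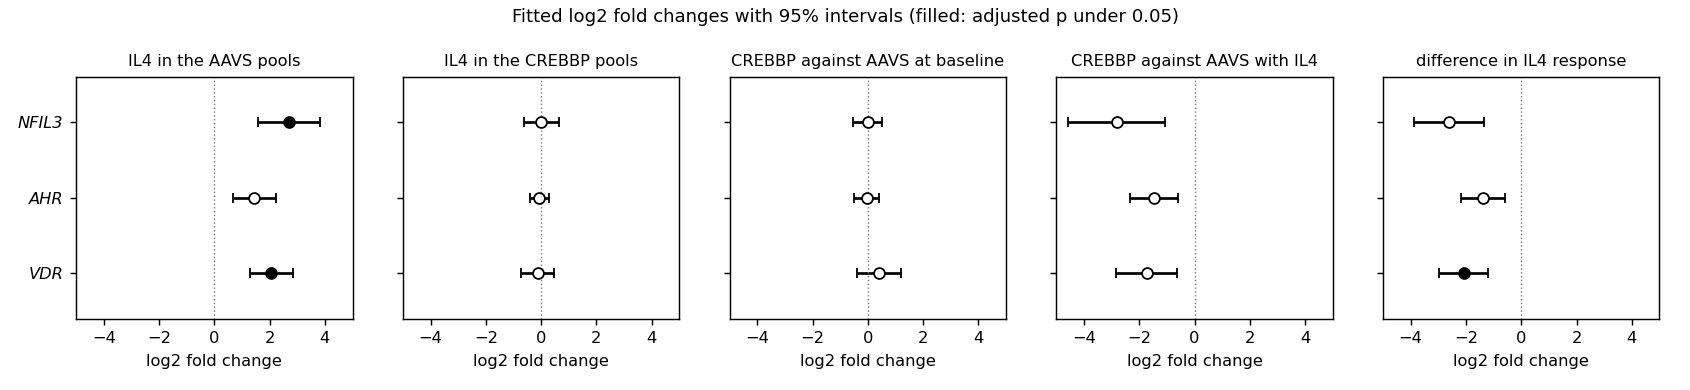
Fitted log2 fold changes (horizontal axis) of NFIL3, AHR and VDR in the 5 comparisons, with unadjusted 95% intervals as bars; filled circles passed an adjusted p of 0.05. The intervals lie clear of 0 in the 3 comparisons that use the AAVS IL4 libraries and span 0 in the other 2.

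Across all 16 libraries, AAVS IL4 libraries lay above the other 12 for NFIL3 (lowest 45.8 CPM against a highest of 33.3 CPM elsewhere), AHR (52.2 against 45.1 CPM) and HLX (0.530 against 0.0245 CPM). The same held for 4.4% of the 21932 genes kept over all groups. HLX was kept there only through the AAVS IL4 libraries, so its place above the other 12 was fixed in advance. VDR was the exception among the 4 genes with readable levels, since the AAVS IL4 libraries of lines 2 and 4 (4.12 and 4.99 CPM) were below the CREBBP libraries of line 1 (6.20 and 5.63 CPM).

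Of the 13 listed genes that work with NFIL3 in the circadian clock, 12 were tested in the AAVS pools and 2 were called higher, beside 2.39% of all genes tested, with a median log2 fold change of 0.23 against 0.01 over all genes tested. BHLHE40, a repressor of clock and immune genes, rose from 3.05 ± 1.04 to 133 ± 101 CPM (SD, n = 4; log2 fold change 5.08 ± 0.35 SE, edgeR adjusted p = 0.00235), although a CREBBP library reached 128 CPM of it. CRY1, a clock repressor, was at most 0.0535 CPM in the other 12 libraries and 0.901 to 18.8 CPM with IL4 in the AAVS pools. CRY1 was kept by the filter only through the AAVS IL4 libraries, so the direction of its calls was fixed in advance. In the CREBBP pools 0 of 11 were called, with a median of -0.24 against -0.04 over all genes. With IL4, CRY1 was the list gene called lower in CREBBP pools, and BHLHE40 was the list gene called for the difference in response (-5.14 ± 0.43, edgeR adjusted p = 0.000291).

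The AHR partners and targets held 0 calls among 11 tested in the AAVS pools, beside 2.39% of all genes tested. Their median log2 fold change was -0.23. CYP1B1, an enzyme that AHR induces, was called lower in the CREBBP pools with IL4 (edgeR adjusted p = 0.0197), at 0.678 to 5.04 CPM with IL4 in the AAVS pools and at most 0.172 CPM elsewhere. CYP1B1 was kept by the filter only through the AAVS IL4 libraries. CYP1A1 and TIPARP, named here after their values were seen because they are standard AHR targets, were not called. CYP1A1 averaged 1.37 ± 0.91 CPM at AAVS baseline and 0.681 ± 0.569 CPM with IL4, and TIPARP 147 ± 56 and 121 ± 21 CPM.

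Of the VDR partners and targets, 10 of 12 were tested and 1 was called higher in the AAVS pools, beside 2.39% of all genes tested. That gene was NCOA1, a coactivator of nuclear receptors, at 21.5 ± 9.4 CPM at baseline and 65.5 ± 25.5 CPM with IL4 (log2 fold change 1.58 ± 0.20 SE, edgeR adjusted p = 0.0170), and it was called lower in the CREBBP pools with IL4 (-1.62 ± 0.28, edgeR adjusted p = 0.0296) and for the difference in response (-1.41 ± 0.26, edgeR adjusted p = 0.0411). The list median in the AAVS pools was 0.18. CYP24A1, the enzyme that degrades active vitamin D, did not exceed 0.160 CPM in any library.

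Among 15 homeobox genes of related use or kind, 13 were tested in the AAVS pools and 1 was called, beside 2.39% of all genes tested. The median was -0.02. TGIF1, a homeobox repressor, rose from 0.460 ± 0.425 to 12.6 ± 11.7 CPM (edgeR adjusted p = 0.0357), and both TGIF1 and PBX4 were called lower in CREBBP pools with IL4, PBX4 at 5.23 ± 3.48 CPM in the AAVS and 0.464 ± 0.415 CPM in the CREBBP pools (edgeR adjusted p = 0.0464).

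Of the IL4 receptor pathway, 4 of 12 tested genes were called higher in the AAVS pools, beside 2.39% of all genes tested, and the median log2 fold change was 1.45. The called genes were JAK1 (1.28 ± 0.21 SE, edgeR adjusted p = 0.0340), the receptor chain IL13RA1 (1.03 to 15.4 CPM against at most 0.194 CPM elsewhere) and the feedback inhibitors CISH (9.25 to 55.6 CPM against at most 3.83 CPM) and SOCS3 (5.16 to 143 CPM against at most 0.422 CPM). IL13RA1 was kept by the filter only through the AAVS IL4 libraries, so the direction of its call was fixed in advance. SOCS3, at most 0.422 CPM elsewhere, had little room to be called in the other direction. Between the baseline groups 9 of the 12 list genes were kept by the filter. STAT6, named outside the rule as the factor that carries the IL4 signal, was not called, at 464 ± 194 CPM without and 423 ± 105 CPM with IL4. In the CREBBP pools 0 of 10 were called and the median was -0.01. With IL4, JAK1 and SOCS3 were called lower in CREBBP pools, and JAK1 was called for the difference in response.

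Of 10 other regulators tied to IL4, 4 were called higher in the AAVS pools, beside 2.39% of all genes tested, and the median was 2.38. IRF4, a factor of plasma cell and T-cell differentiation, rose from 0.611 ± 0.467 to 157 ± 147 CPM (edgeR adjusted p = 0.000594), and BATF, its partner at DNA, from 1.95 ± 1.15 to 9.53 ± 6.22 CPM (edgeR adjusted p = 0.0226). MAF and GATA3, both known from helper T cells, had 0 counts in all 12 other libraries and ranged from 0.650 to 42.5 and from 0.650 to 10.2 CPM in the AAVS IL4 libraries. They were kept by the filter only through these AAVS IL4 libraries, so the direction of their calls was fixed in advance. In the CREBBP pools 0 of 7 tested were called. In CREBBP pools with IL4, 5 of 10 were called lower, XBP1 besides these 4, where 3.42% of all genes tested were, and IRF4 and BATF were called for the difference in response.

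Of the 34 symbols of the study's core list, 33 were tested in the AAVS pools. Of these, 12 were called higher, beside 2.39% of all genes tested. The 12 include the members NFIL3, VDR and HLX, so they are not separate from the member calls. HLX was kept by the filter only through the AAVS IL4 libraries, and between the baseline groups 28 of the 34 were kept. The median log2 fold change was 2.28 against 0.01 over all genes. In the CREBBP pools 0 of 29 were called, with a median of 0.17 against -0.04. The marker lists also held calls in the same comparison, beside the same 2.39% of all genes tested. In the AAVS pools 6 of 8 naive or memory B-cell and 8 of 13 T-cell markers were called higher (medians 6.86 and 6.27). Only 4 of these 8 and 5 of these 13 were kept by the filter between the baseline groups. The rest, such as IGHM and CD2, were kept only through the AAVS IL4 libraries, so their direction was fixed in advance. Of the germinal-centre markers 0 of 4 were called. These lists held 0 calls in the CREBBP pools, where 4 of 8 naive or memory B-cell and 4 of 13 T-cell markers were tested. The other lists held few tested markers, with 1 of 4 NK-cell, 1 of 6 myeloid, 0 of 3 stromal and endothelial, 1 of 1 epithelial (CDH1) and 1 of 2 red-cell and platelet markers called higher in the AAVS pools, and follicular dendritic cell markers not tested. In the AAVS pools CDH1 and HBB were also kept only through the IL4 libraries. The part of other cell types in these counts was not tested.

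**Figure D4:**
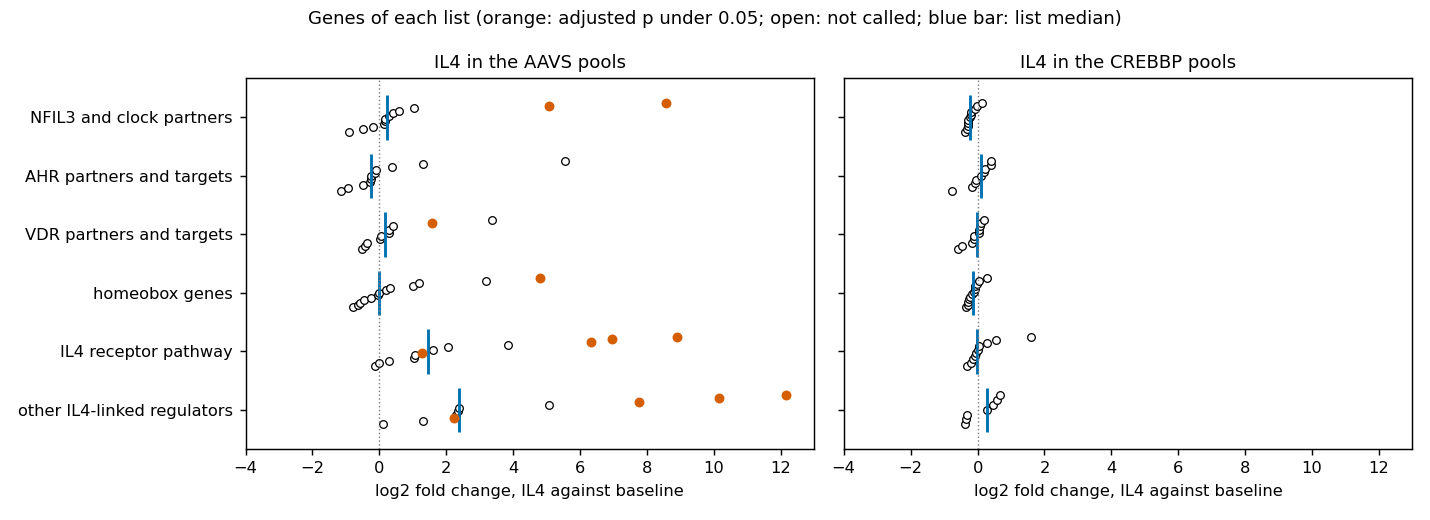
Fitted log2 fold changes with IL4 (horizontal axis) for the tested genes of 6 lists in the AAVS pools (left) and the CREBBP pools (right); orange symbols passed an adjusted p of 0.05, open symbols did not, and blue bars are list medians. The called genes are all in the AAVS pools, and the medians of the CREBBP pools lie between -0.24 and 0.27.

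Finally, the genes whose pattern was closest to each member were taken by Pearson correlation of log2(CPM + 1), centred within each line, over the 16 libraries. The libraries of a line share cells and the AAVS IL4 libraries share the transcripts described above, so the correlations are a description only. Closest to NFIL3 were TTC38, ZNF615 and CLCN4 (r between 0.984 and 0.987), to AHR ZNF331, SPIN3 and BMP6 (0.980 to 0.982), to VDR DNAJC1, POU6F1 and MINPP1 (0.962 to 0.967) and to HLX IL15RA, SPART and UST (r of 0.998 for each). Between the members themselves r ranged from 0.830 for NFIL3 with VDR to 0.947 for NFIL3 with HLX. The choice of neighbours depended on the scale, since with log2(CPM + 0.1) the same 3 genes were shared by 0 for NFIL3 and VDR and by 1 for AHR and HLX.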

How the data were processed

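Per the methods, which describe primary B cells and are said to hold for the lines, the authors used Cutadapt 2.3 for trimming, STAR 2.7.8a for mapping to GRCh38 and RSEM 1.3.3 for estimated counts per gene. They deposited these counts as whole numbers per library, not normalized, and the annotation release is not given in the sources used here.

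CPM is the count per 1000000 counts of the library. Genes kept by filterByExpr (edgeR 4.0.16, R 4.3.3) were scaled by TMM. Tests were edgeR's quasi-likelihood F-tests that blocked on the line, with Benjamini-Hochberg adjustment across every gene in the test. SEs were derived from the test statistic. The difference in response used a term for each of the 8 pools. Line changes used a pseudocount of 0.1 CPM. The line numbers pair the libraries because they mark the cell line, and within-line correlations of deviations from group means had medians of 0.593, 0.711, 0.298 and 0.685 for lines 1 to 4, with a lowest value of -0.158. Replicates were not copies (chi-square per degree of freedom of at least 111). Positions and exon lengths came from GENCODE release 44, which holds 99.9% of the genes in the files, and promoters from RefSeq. Of the genes, 20930 have no symbol in the files.

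The members and the gene and marker lists were chosen with earlier results of these data known. The genes named are the members, the list genes called in any comparison, CREBBP and EP300, and the 3 genes most like each member with a mean of at least 0.5 CPM, and genes named outside this rule are said to be so. The core list was planned as 33 symbols and holds 34. Alternatives were other scaling factors, filters, no block, each line left out, all libraries in 1 fit, DESeq2 1.42.0, limma-voom 3.58.1 and, added later, library totals over all genes.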

Additional observations from a re-analysis of the deposited data

Results flagged for a closer look

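Among the 17 groups of 4 libraries in which a member varied, 3 had a library far from the other 3. This was judged by Dixon's test of the gap to the nearest library over the whole range. For normally distributed values chance gives about 1 in 20 groups. NFIL3 stood at 33.3 CPM in the CREBBP IL4 library of line 2, against 4.51 to 7.75 CPM in the other 3. The other 2 rest on 1 count each, HLX at 0.0245 CPM in the AAVS baseline library of line 2 and BARX2 at 0.0182 CPM in the CREBBP baseline library of line 4. With no counts in the other 3 libraries the gap equals the range. These 2 flags were thus fixed in advance, and the rate of 1 in 20 does not apply to them.

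The IL4 response of VDR differed between the CREBBP and AAVS pools by -2.09 on the log2 scale in edgeR's test of the difference, smaller in 4 of 4 lines, and the AAVS IL4 libraries on which it rests hold transcripts of other cell types, whose part was not tested.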

How the results depend on the processing

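No alternative called a member for IL4 in the CREBBP pools or at baseline. In the AAVS pools, 3 members were called for IL4, but 0 with at least 10 counts in every library, which drops HLX from the test, and between 0 and 4 with a line left out, and AHR passed as well with no filter, by DESeq2, by limma-voom and with all 16 libraries in 1 fit. NFIL3 there reached an adjusted p of 0.0528 with upper-quartile factors, which moved the median of all genes from -0.05 to -0.27 for CREBBP against AAVS with IL4 and from 0.05 to -0.10 for the difference in response. For CREBBP against AAVS with IL4 the count was 1, and 4 members were called with no filter, by DESeq2, by limma-voom and with all 16 libraries in 1 fit, 2 with at least 10 counts in every library, and 0 to 3 with a line left out. For the difference in response it was 1, and 3 were called with no filter and by DESeq2 (AHR, NFIL3 and VDR) and by limma-voom (HLX, NFIL3 and VDR), and 0 to 2 with a line left out.

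Without the line as a block, 0 members were called for the difference (VDR adjusted p = 0.953), VDR lost its call in the AAVS pools (2.36, adjusted p = 0.2), and NFIL3 at baseline turned to 0.19; it changed no other call of a member.

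Directions turned for log2 values near 0. NFIL3 at baseline was 0.01 with median-of-ratios factors (0.007222), by DESeq2 (0.008001) and with all libraries in 1 fit (0.005206), and 0.047 by limma-voom (0.04707), and NFIL3 in the CREBBP pools was -0.01 with upper-quartile factors (-0.008198). With a line left out, NFIL3 at baseline lay between -0.16 and 0.19, AHR at baseline between -0.16 and 0.09 (0.08685 without line 2), NFIL3 in the CREBBP pools between -0.25 and 0.37 and AHR there between -0.11 and 0.05 (0.04735 without line 1). The cause was not tested.

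Over all genes, the AAVS pools gave 488 calls for IL4, 25 with at least 10 counts in every library, 1851 with no filter, 2062 by DESeq2, 860 by limma-voom, 1270 with all 16 libraries and 64 to 1035 with a line left out. The same counts for CREBBP against AAVS with IL4 were 859, then 3466 with no filter, 540 without the block, 4154, 2032, 4393 and 25 to 2547, and for the difference 140, then 69 with at least 10 counts, 1191 with no filter, 2 without the block, 1100, 587 and 16 to 264. At baseline, 586 were called with no filter and 0 to 515 with a line left out, and 40 for IL4 in the CREBBP pools with no filter.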
